A study of Gallus gallus with 10 samples.

Results

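The comparison set every hen library from a diet with 2 Lactobacillus strains against the libraries from the basal diet. It was chosen by diet label alone and used all 10 libraries of the series, 7 pair-fed and 3 control. The hens were Hy-Line brown layers at peak production on a commercial farm, and RNA came from crypts of their duodenum. All hens received the base feed, and pair-fed hens received lactobacilli on top of it at 10e8 CFU per hen and day, as the labels write it, for 30 days. The pairs were L. sa. + L. ag. (2 libraries), L. sa. + L. av. (2 libraries) and L. ag. + L. av. (2 libraries). For the seventh pair-fed library the title names L. ag. + L. av. but the description names L. sa. + L. av., so it counted as pair-fed only and is called the library of unclear pair, replicate 3. The series title gives L. sa. as Lactobacillus salivarius and L. ag. as Lactobacillus agilis, while L. av. is not spelled out. There was no group with a single strain, and no group with a carrier or killed bacteria is among these libraries. Hens were divided at random, but whether the libraries are of different hens is not stated, so the p-values measure only the spread between libraries, which may be technical.

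Crypts are the pits between the villi of the small intestine. Stem cells at their base renew the epithelium, and Paneth cells beside them secrete antimicrobial proteins and signals that keep the stem cells dividing. Lactobacilli are lactic acid bacteria that live in the gut of poultry and are given as feed supplements. Crypts freed with a chelator also carry absorptive and goblet cells from the crypt mouth and may carry immune and stromal cells from below the epithelium, and in such bulk RNA fewer cells of a type and less RNA per cell cannot be told apart.

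Expression was given as FPKM, a read density: fragments per kilobase of feature, scaled by a total for the library. A feature is 1 row of the table, with an Ensembl chicken gene identifier or a numbered identifier of the authors. The identifiers are paired with 0 gene symbols in the sources used here, so no stem cell, Paneth cell or other marker could be read, and the labelled tissue was not checked against markers. Features are therefore described by level, length and behaviour in the 10 libraries. Of 19561 features, 2186 were at 0 in every library and 12040 reached 1 FPKM in at least 2 libraries and were tested. At the edge of that filter, 677 tested features reached 1 FPKM in exactly 2 libraries and 940 untested ones did so in 1 library.

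More reads were recovered on features in each control library than in any pair-fed library. Reads recovered from the FPKM ranged from 21.7 M to 23.7 M under the basal diet and from 15.3 M to 17.6 M with a pair. The means were 22.4 ± 1.13 M (SD, n = 3) and 16.5 ± 1.00 M (SD, n = 7). The 2-sided exact permutation p was 0.0083, as low as 120 splits can go (0.0166 adjusted over 4 such tests). These 4 tests include the gap by length below, chosen after its pattern was seen. Its p is equally low, which makes this adjusted value smaller. The totals by which the authors divided overlap, at 16.5 M to 30.3 M in control and 9.15 M to 19.4 M in pair-fed libraries, and the number of reads sequenced is not known. Recovered reads and diet cannot be told apart in this design, and the part of read number in the results that follow was not tested. Features above 0 numbered 15427 to 15640 in control and 13886 to 15696 in pair-fed libraries, which overlap (2-sided exact permutation p = 0.075, adjusted 0.10). At 1 FPKM or more the counts were 10094 to 10698 and 9963 to 10861. The 100 highest features held 64.2 ± 14.0% of all FPKM in control (SD, n = 3) and 61.6 ± 5.57% in pair-fed libraries (SD, n = 7), a difference within the spread (2-sided exact permutation p = 0.675, adjusted 0.675). The 2 most abundant features did not pass the test and varied most among the controls, from 16518 to 157532 FPKM for one and from 22188 to 174435 FPKM for the other.

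Across the crypt transcriptome, 1668 features rose and 1233 fell with a pair, 2901 of 12040 or 24.1% (limma, adjusted p under 0.05). The features that rose were the shorter ones and, in the mean over all 10 libraries, the more abundant ones. Their median level was 32.2 FPKM and their median length 1205 bp, against 5.86 FPKM and 1865 bp over all tested features. The features that fell had a median level of 4.71 FPKM and a median length of 2879 bp. The median log2 fold change was 1.36 among features that rose and -0.97 among those that fell, against 0.03 over all tested features. A change of at least 4-fold was seen in 146 features that rose and in 9 that fell. Of the 863 tested features with a mean of at least 100 FPKM, 430 rose and 12 fell. These levels are means over all 10 libraries, 7 of them pair-fed, so a rise itself raises a feature's level and a fall lowers it. Levels in the controls alone were not compared. These medians describe features chosen by the same test and carry no test of their own. The log2(FPKM + 1) scale understates changes of low features, which are more of those that fell, so the sizes of rises and falls are not compared. The split depends on the scaling. Where values were divided by all recovered reads, which moved the median of all features to -0.20, 894 rose and 1179 fell, and with quantile normalization 1310 rose and 1572 fell.

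**Figure D1:**
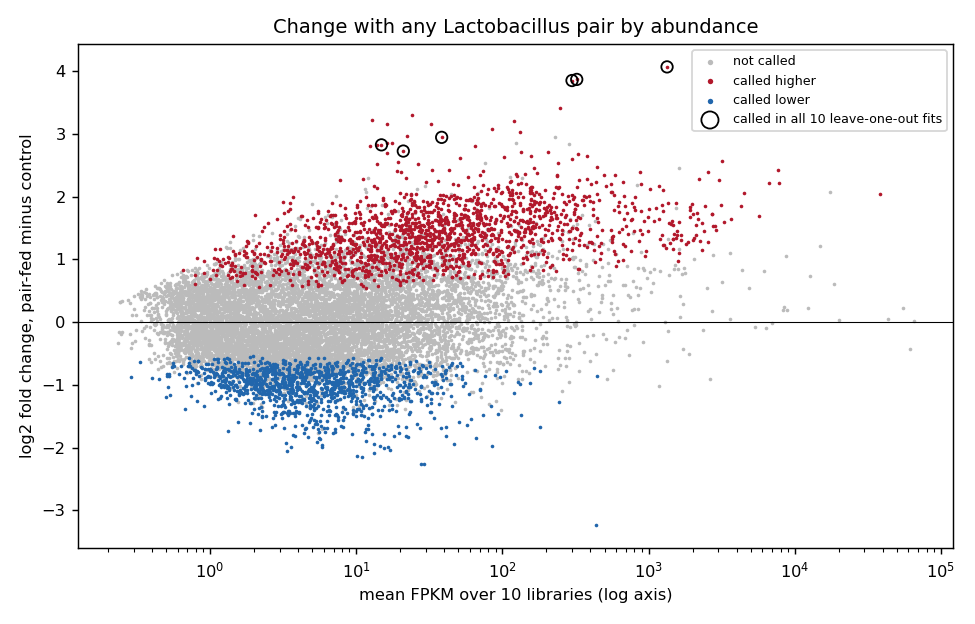
Log2 fold change on the log2(FPKM + 1) scale, pair-fed minus control (vertical axis), against mean FPKM over the 10 libraries (horizontal log axis) for the 12040 tested features, with red points called higher, blue points called lower and circles for 6 features called with every library left out in turn. Red points reach the far right of the plot, while the most abundant blue point of all lies at a mean of 446 FPKM.

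The filter itself fixes the direction of some features. Of 830 features that reached 1 FPKM only in pair-fed libraries, 68 were called, all higher, and of 106 that did so only in control libraries, 46 were called, all lower. These calls are part of the counts, medians and shares by length given here, and no count without them was made. Of the 17374 features with a recovered length, 0 had 0 reads in the 3 controls and reads in all 7 pair-fed libraries. With 0 reads in the 3 controls, 22 had reads in at least 5 pair-fed libraries. The reverse pattern, reads in all 3 controls and 0 in all 7 pair-fed libraries, was seen in 26 features. These were scarce, with a median of 7 control reads in all, 0 of the 26 reached 10 reads in every control, and 1 of them passed the filter. The highest held 1.71 FPKM in a control library. Read numbers of features outside the filter are less certain, since their lengths were recovered less often in simulated tables. All 3 controls had more recovered reads than any pair-fed library. The first pattern needs reads in 7 libraries and the reverse pattern in 3, so their counts are not compared.

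Among features that rose and whose groups did not overlap, ENSGALG00000016172, of 460 bp, had the highest level over all libraries. It was at 1642, 2234 and 2469 FPKM in control replicates 1, 2 and 3. In pair-fed libraries it ranged from 3694 to 11593 FPKM, with a median of 7489 FPKM. The lowest pair-fed values, 3694 and 3868 FPKM, came from L. ag. + L. av. replicate 1 and L. sa. + L. ag. replicate 1, and the highest from L. ag. + L. av. replicate 2, so the libraries of 1 pair lay at both ends. The mean rose from 2115 ± 426 (SD, n = 3) to 7243 ± 2882 FPKM (SD, n = 7). On the log2 scale the change was 1.69 ± 0.42 (SE), and limma gave an adjusted p of 0.019. The call was lost in 7 of 23 alternatives. Among them, limma gave an adjusted p of 0.078 with control replicate 1 left out, 0.074 with control replicate 2 left out, and 0.11 with quantile normalization, where the log2 fold change was 0.79. Its limma adjusted p lay between 0.0064 and 0.28 over the alternatives, apart from library weights (3.7e-06), whose estimate stopped before it converged.

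ENSGALG00000015195, a feature of 450 bp, had the same lowest and highest pair-fed libraries. Its control values were 850, 1665 and 1989 FPKM, and its pair-fed values ran from 2595 FPKM in L. ag. + L. av. replicate 1 to 10020 FPKM in L. ag. + L. av. replicate 2, with a median of 5217 FPKM. With a pair it rose by 1.85 ± 0.44 (SE) on the log2 scale, with a limma adjusted p of 0.017. Among the 5 alternatives that lost the call, the limma adjusted p was 0.079 without control replicate 1 and 0.068 without control replicate 2. It ran from 0.0052 to 0.27 over the 23 alternatives, apart from the library weights that did not converge (6.0e-06). Quantile normalization kept the call with a log2 fold change of 0.71. Estimated pair by pair against the same 3 controls, the log2 fold changes were 1.73 for L. sa. + L. ag., 2.03 for L. sa. + L. av. and 1.85 for L. ag. + L. av., each with an SE of 0.73. No pair passed in that model (limma adjusted p = 0.32, 0.14 and 0.20 in the same order).

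Of the features that fell without overlap, ENSGALG00000010023, of 448 bp, was the most abundant. It was at 732, 624 and 590 FPKM in control replicates 1, 2 and 3 and between 256 and 476 FPKM, median 352 FPKM, in the pair-fed libraries. The highest pair-fed value came from L. sa. + L. av. replicate 2 and the lowest from L. ag. + L. av. replicate 2. Control libraries averaged 649 ± 74.3 FPKM (SD, n = 3) and pair-fed libraries 360 ± 68.0 FPKM (SD, n = 7). The log2 fold change was -0.87 ± 0.26 (SE), with a limma adjusted p of 0.031, and it was -1.88 with quantile normalization. The call was lost in 9 of 23 alternatives. Leaving out control replicate 1, 2 or 3 gave a limma adjusted p of 0.11, 0.10 or 0.061, and leaving out L. sa. + L. av. replicate 1 or the library of unclear pair gave 0.060 for both. Over the alternatives its limma adjusted p ran from 0.0077 to 0.33, apart from the library weights that did not converge (7.2e-05).

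ENSGALG00000011429, a longer feature of 2253 bp, had the narrowest control values of these 4 features, 239, 269 and 257 FPKM. Pair-fed libraries held 98.3 to 215 FPKM, median 148 FPKM, the lowest being L. sa. + L. av. replicate 1 and the highest replicate 2 of the same pair. Their mean lay 0.592 times as high as that of the controls, a log2 difference of -0.79 ± 0.26 (SE) just past the threshold (limma adjusted p = 0.046). It was lost in 13 of 23 alternatives, among them the replicate block (limma adjusted p = 0.062) and voom weights (0.055). In fits that left out a library it was lost without control replicate 1 (0.10), 2 (0.15) or 3 (0.10), without L. sa. + L. ag. replicate 2 (0.081), L. ag. + L. av. replicate 2 (0.064), L. sa. + L. av. replicate 1 (0.078) or the library of unclear pair (0.076). The range of its limma adjusted p was 0.0087 to 0.32, apart from the library weights that did not converge (4.7e-05). With quantile normalization the log2 fold change was -1.59.

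**Figure D2:**
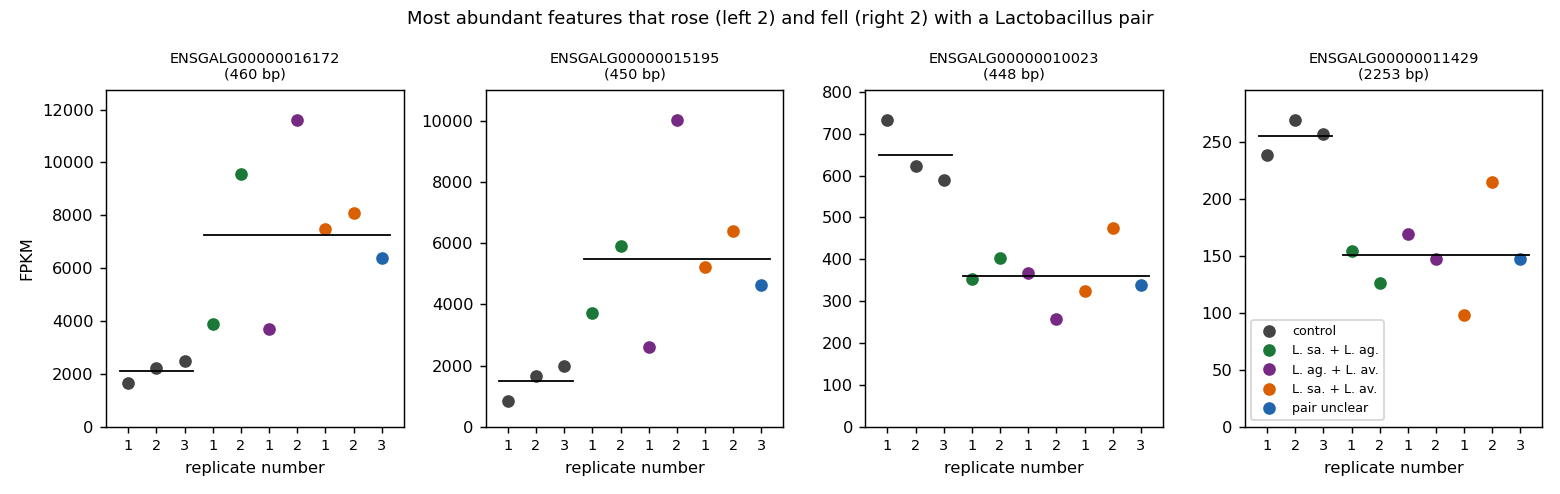
FPKM (vertical axes, from 0) in each of the 10 libraries for the 2 most abundant features that rose and the 2 that fell without overlap of the groups; points are libraries coloured by group, numbers under the axis are replicate numbers, and black lines are the means of control and of pair-fed libraries. All 7 pair-fed libraries lie above the 3 controls in the left panels and below them in the right panels, with the widest spread in ENSGALG00000016172, from 3694 to 11593 FPKM.

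A large fold can rest on 1 control library. The called feature with the lowest log2 fold change of all, one of 192 bp at -3.24 ± 1.09 (SE) and a limma adjusted p of 0.049, was at 4011 FPKM in control replicate 1 and at 70.9 and 65.6 FPKM in control replicates 2 and 3. Its pair-fed values, 12.8 to 88.0 FPKM, overlap those of the latter libraries. It was called in 2 of the 10 fits that left out 1 library.

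The 3 control libraries carried unequal weight in the count of calls. Without control replicate 1, 125 features were called, without control replicate 2, 6 were, and without control replicate 3, 1936 were. At an unadjusted p under 0.05, these fits still held 3650, 3759 and 4461 features, against 4839 with all libraries. Control replicate 2 was the middle value of the 3 controls in 60.8% of tested features and in 65.7% of called features. Control replicate 1 was the middle value in 14.2% and control replicate 3 in 25.0% of tested features. Leaving out a pair-fed library gave 1764 to 3915 calls. The count rose to 3915 without L. sa. + L. ag. replicate 1 and to 3757 without L. ag. + L. av. replicate 1. It fell to 1764 without L. sa. + L. av. replicate 1 and to 1816 without the library of unclear pair. A contrast of the mean of the 3 pairs, with that library outside the mean, called 10 features, all higher, with 3967 at an unadjusted p under 0.05.

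**Figure D3:**
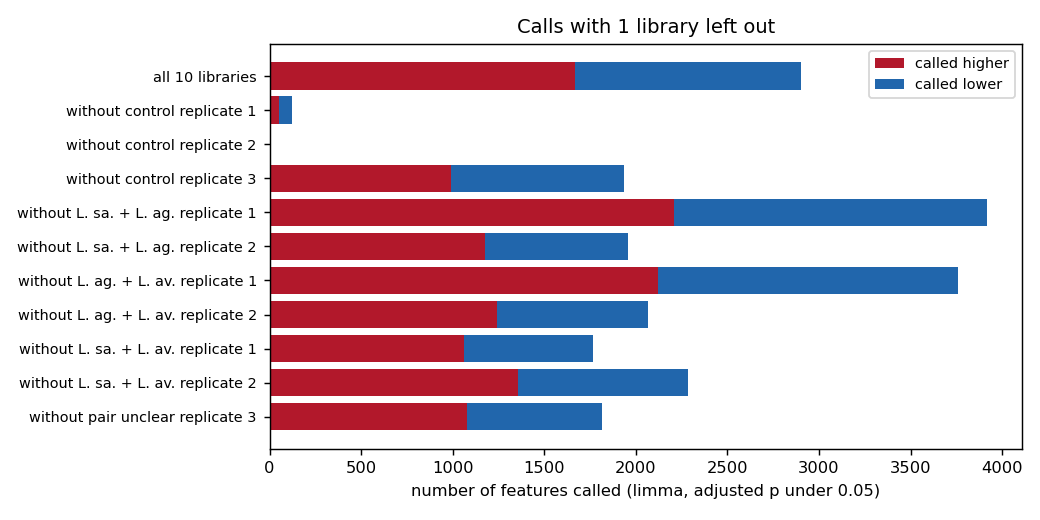
Number of features called with any pair against control (horizontal axis), with red for higher and blue for lower, in the fit of all 10 libraries and in fits that left out 1 library each. The count is 2901 with all libraries, 125 without control replicate 1 and 6, too few to be seen, without control replicate 2.

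Called features were called again with every library left out in turn in 6 cases, 0.0498% of those tested, and all 6 rose. They were picked by this same contrast, so their values are a description. They were short apart from one, with lengths of 205, 287, 321, 322 and 329 bp, a length that 4.53% of tested features do not exceed, and 1 of 2986 bp with an identifier of the authors' own. Their control levels ranged from 1.89 ± 0.16 FPKM (SD, n = 3) for the 321 bp feature to 104 ± 3.92 FPKM (SD, n = 3) for the 329 bp feature. The ratio of pair-fed to control means was 8.05 to 18.0.

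The 329 bp feature lay at 101 to 108 FPKM in control and at 1015 to 3388 FPKM (median 1684 FPKM) in pair-fed libraries, so that its lowest pair-fed value was 9.37 times its highest control value. For the 287 bp feature the ranges were 23.4 to 30.9 and 278 to 621 FPKM (median 391 FPKM). For the 322 bp feature they were 24.3 to 30.3 and 226 to 765 FPKM (median 424 FPKM). The 321 bp feature moved from between 1.74 and 2.05 FPKM to between 9.49 and 30.0 FPKM, on at least 10 reads in each control. The 205 bp feature had wider control values, 3.05 to 11.6 FPKM, and 34.0 to 81.6 FPKM (median 51.6 FPKM) with a pair. In each of these 5 short features the lowest pair-fed value was at least 2.92 times the highest control value. The 2986 bp feature went from 1.92 to 4.76 FPKM in control to between 17.1 and 56.8 FPKM, median 23.0 FPKM. In 5 of the 6 the highest library was L. sa. + L. av. replicate 1, and in 4 the lowest pair-fed library was L. ag. + L. av. replicate 1. Their log2 fold changes lay between 2.73 and 4.07. All 6 were called in 21 of 23 alternatives, but these include the 10 fits with 1 library left out by which they were picked. In those 10 fits a call was fixed in advance. The exceptions were the fits of L. sa. + L. ag. alone and of L. ag. + L. av. alone with the controls. There none passed (limma adjusted p up to 0.25). Pair contrasts from the model of all libraries called other subsets. There 3 of the 6 passed for L. sa. + L. ag., those of 287, 322 and 329 bp (limma adjusted p = 0.025 each). For L. sa. + L. av. 4 of the 6 passed, and the 205 bp and 2986 bp features did not (0.059 and 0.052). For L. ag. + L. av. 0 passed (0.076 to 0.17).

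**Figure D4:**
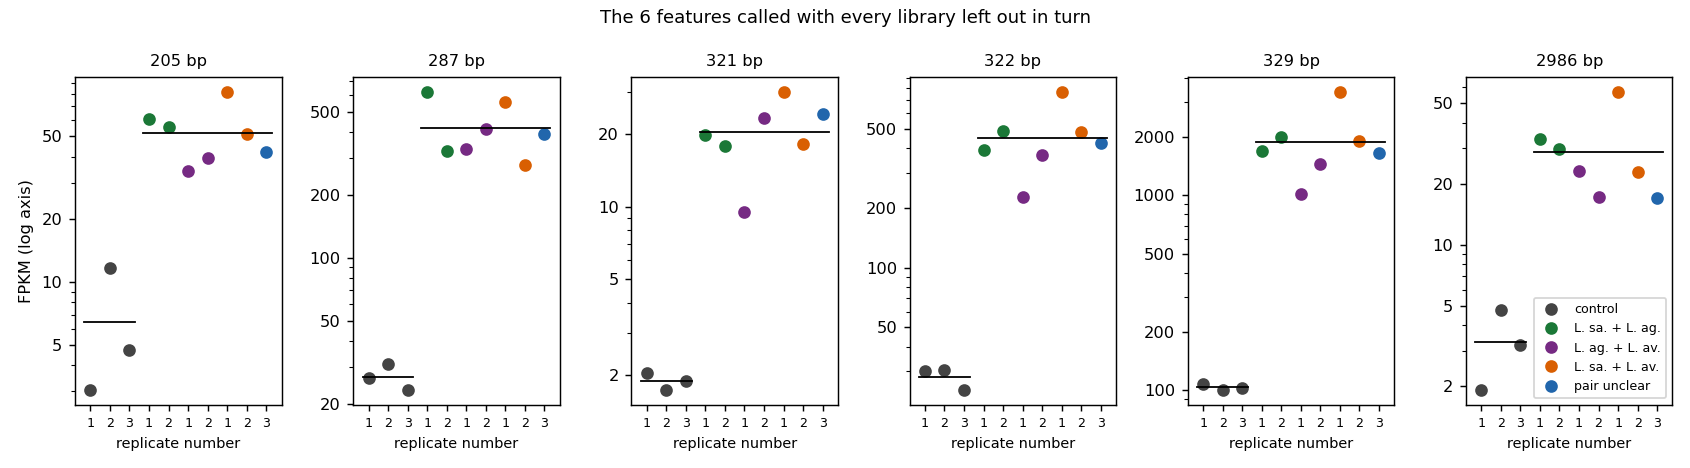
FPKM (vertical log axes, a scale of its own in each panel) in each library for the 6 features called with every library left out in turn, each panel headed by the feature's length; points are libraries coloured by group with replicate numbers beneath, and black lines are the means of control and of pair-fed libraries. In every panel the 7 pair-fed libraries lie above the 3 controls, with the 329 bp feature at 1015 to 3388 against 101 to 108 FPKM.

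The fit without control replicate 2 called 6 features. In all other 9 fits that left out 1 library, which keep control replicate 2, 40 of the 12040 tested features were called higher and 36 lower. The 40 include the 6 features described above. They were picked by this same contrast, so the values that follow are a description. The 40 had a median length of 745 bp and a median level of 38.3 FPKM, with log2 fold changes of 1.14 to 4.07. The 36 had a median length of 2104 bp and a median level of 6.42 FPKM, with log2 fold changes of -2.25 to -0.99.

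Feature length separated the diets library by library. For each library the median deviation of features above 4000 bp (1875 features) was taken from that of features up to 500 bp (1022 features), on the log2 scale and from the mean of all libraries, a gap in which a single factor of the library largely cancels out. The gap was -0.86, -0.58 and -0.42 in control replicates 1, 2 and 3. In pair-fed libraries it was -0.09 and 0.28 for L. sa. + L. ag., 0.44 and 0.13 for L. sa. + L. av., -0.01 and 0.63 for L. ag. + L. av., each in order of replicate number, and 0.48 for the library of unclear pair. Short features thus stood higher against long ones in each of the 7 pair-fed libraries than in any control. The means were -0.62 ± 0.23 (SD, n = 3) and 0.26 ± 0.27 (SD, n = 7), a difference of 0.88 (2-sided exact permutation p = 0.0083, again the lowest possible, adjusted 0.0166). The difference was 0.96 after division by all recovered reads and 1.46 among features with a mean of at least 5 FPKM, which is over 1.5 times as large. Features that rose were both shorter and, in the mean over all libraries, more abundant, and length and level were not separated. This measure was chosen after the pattern with length had been seen, and neither its p nor the adjusted value allows for that choice. Recovered reads, in order of replicate number, were 17.64 M and 16.41 M for L. sa. + L. ag. and 15.26 M and 15.44 M for L. sa. + L. av. For L. ag. + L. av. they were 17.55 M and 15.99 M, and the library of unclear pair held 17.33 M. Whether the gap follows recovered reads among the pair-fed libraries was not tested.

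The share of features that fell grew with length, while the share that rose was highest between 500 and 1000 bp and declined beyond. Among features up to 500 bp 20.3% rose and 1.37% fell, between 500 and 1000 bp 24.9% rose and 4.44% fell, and between 1000 and 2000 bp 17.5% rose and 7.70% fell. Between 2000 and 4000 bp 8.45% rose and 14.4% fell, and above 4000 bp 3.47% rose and 17.4% fell. Over all lengths, 13.9% rose and 10.2% fell.

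**Figure D5:**
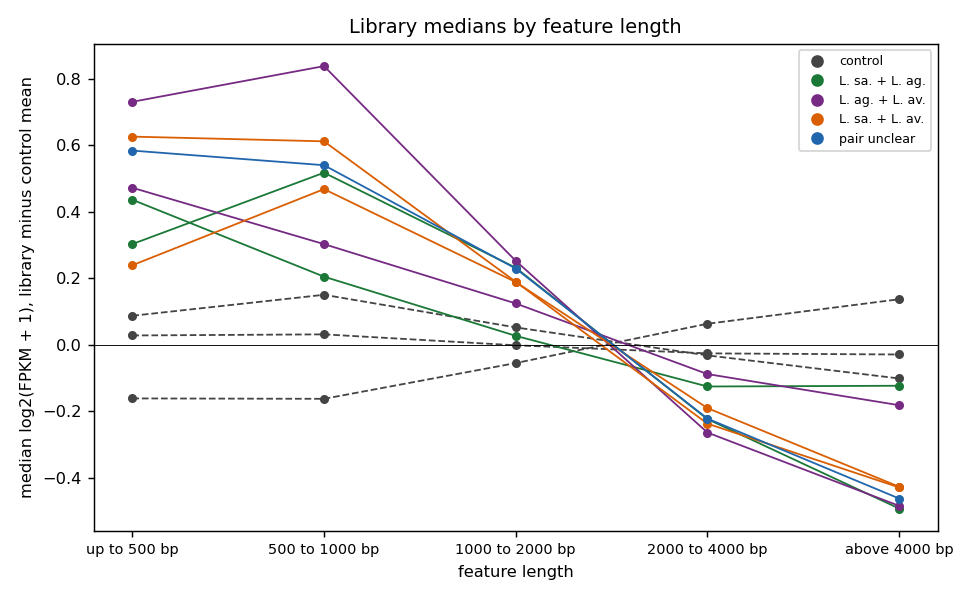
Median of log2(FPKM + 1), library minus control mean (vertical axis), for tested features in 5 classes of length (horizontal axis), with 1 line for each library coloured by group and dashed lines for the controls. In features up to 500 bp the 7 pair-fed libraries lie at 0.24 to 0.73 and the controls at -0.16 to 0.09, and above 4000 bp they lie at -0.49 to -0.12 and the controls at -0.10 to 0.14.

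The pair-fed libraries lay at different distances from the controls. Over the features called higher, the median distance from the control mean was 0.61 in L. ag. + L. av. replicate 1, 0.87 in L. sa. + L. ag. replicate 1, 1.32 to 1.66 in the other pair-fed libraries but one, and 2.08 in L. ag. + L. av. replicate 2. Over the features called lower it ran from -0.65 and -0.67 in the first 2 of these libraries to -1.24 in the last.

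L. ag. + L. av. replicate 1 was the pair-fed library nearest the controls in 787 of the 1237 features called higher whose groups did not overlap. For the 917 such features called lower, L. sa. + L. ag. replicate 1 was nearest in 381 and L. ag. + L. av. replicate 1 in 326. Among all 12040 features, 22.1% showed no overlap of the groups. The called features were picked by this same contrast, so these distances and counts are a description. Over the called features, libraries near the controls and far from them occurred within the same pair.

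The pairs themselves were hardly told apart from one another. A limma F test over the 3 pairs called 1 feature, 0.00831% of those tested, and 331 (2.75%) had an unadjusted p under 0.05. That feature, of 460 bp and distinct from ENSGALG00000016172, was at 0 and 1.18 FPKM in the L. sa. + L. ag. libraries, against 19.9 and 19.0 FPKM in those of L. sa. + L. av. and 24.6 and 34.0 FPKM in those of L. ag. + L. av. (limma adjusted p = 0.031). The controls held 9.73 to 12.5 FPKM and the library of unclear pair 11.8 FPKM. With all pairs pooled it was not called, at a log2 difference of -0.20 ± 0.96 (SE) and a limma adjusted p of 0.89. With 2 libraries a pair, the few calls do not show that the pairs act alike.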

How the data were processed

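RNA-seq of 10 libraries was used as deposited. The authors deposited 1 table of FPKM, and per the submitters' processing notes CASAVA 1.8, HISAT2 and featureCounts 1.5.0-p3 were used; the build, annotation and strand setting were not given in the sources used here. Each feature's FPKM rise in steps of 1 read, which gave lengths, reads and the totals behind the division (0.572 to 1.28 times the recovered reads). A length was kept only where every value above 0 lay within 0.02 of whole reads. That 100% of values did so was therefore fixed by the rule. Such a length was found for 17374 of the 17375 features above 0 in at least 1 library. In simulated tables, the true length was found for 99.87% of 12073 features that passed the filter used here. Over all 17091 simulated features above 0 it was found for 92.64%. The shortest length that fitted was taken, so reads of scarce features may be understated.

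Values were tested as log2(FPKM + 1), a scale on which fold changes of low features are understated, with limma 3.58.1 (R 4.3.3, lmFit and eBayes with a trend), 2-sided, with Benjamini-Hochberg adjusted p under 0.05 over all 12040 features that reached 1 FPKM in 2 or more libraries. No count model was used. In simulated data, 50 features with a mean of at least 5 FPKM were changed at each size. Of these, 30% of 2-fold and 90% of 4-fold changes were called, with 0.11% of 11840 unchanged features. Noise was drawn independently per feature and library, without a shift shared by many features. Far fewer features were changed than were called in the data, so these rates do not carry over to the data. Single values per library, 4 in all, were compared by the mean difference over all 120 splits (exact permutation, absolute difference) with Benjamini-Hochberg adjustment over the 4.

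Named features were, without gene names, the 2 highest in mean FPKM in each direction among called features whose groups did not overlap; features given by length alone were chosen after their values were seen. The reference gene table (25635 genes, assembly bGalGal1.mat.broiler.GRCg7b) matched 0 identifiers, so 24 planned lists of cell type and pathway genes gave no result. Members, lists and tests were chosen with earlier results of these data known. Labels name no batch. Alternatives were another pseudocount, other filters and scalings, library weights, a replicate block, voom weights on recovered reads, the mean of the pairs, each pair alone and each library left out.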

Additional observations from a re-analysis of the deposited data

Results flagged for a closer look

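In 18 measures checked over the 7 pair-fed libraries, 3 had 1 library far from the others, where chance gives about 1 in 20 for libraries of 1 kind, and these come from different pairs. L. sa. + L. av. replicate 1 held 3388 FPKM of the 329 bp feature and 56.8 FPKM of the 2986 bp feature, both far above the next library. The sum of FPKM, in units of 1000 FPKM, was 1641 in L. ag. + L. av. replicate 2, where the other pair-fed libraries held 775 to 1129 and the controls 526 to 1195. That library also had the lowest total behind its FPKM, 0.572 times its recovered reads. The effect of diet differed among the 3 pairs for 1 feature in the F test.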

How the results depend on the processing

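The count of 2901 calls stayed within 1.5 times under the other pseudocount, filters, scalings and voom weights. The number tested did not: 2184 of 17375 were called with no filter and 2361 of 6452 at a mean of at least 5 FPKM. Of the 2901 calls, 2009 and 2058 were kept in direction under these filters, the latter of which dropped some of them. Division by all recovered reads kept 1985 and quantile normalization 2355. The other pseudocount, median-ratio scaling and voom weights kept 2784, 2841 and 2814. It was 8375 with library weights, 10 for the mean of the 3 pairs, 0 for L. sa. + L. ag. alone, 1730 for L. sa. + L. av. alone and 0 for L. ag. + L. av. alone (2177 and 2336 at an unadjusted p under 0.05 in the fits with 0). Library weights put 154 on control replicate 2 and 0.24 to 1.22 on the others, and their estimate stopped before it converged. With 1 library left out the count ranged from 6 to 3915. The replicate block gave 2997 calls, 2645 of them shared with the main result in direction. Deviations of same-numbered libraries had correlations of -0.29 to 0.44, with 4 of 12 over 0.1. A pair has 2 libraries, whose deviations mirror each other, so from pair to pair both replicate numbers give the same correlation. The 12 values are therefore not separate checks and cannot decide whether the numbers pair the libraries.

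The count of 1 feature among the pairs was 0 with a pseudocount of 0.1, 4 with no filter and 0 with the library of unclear pair placed by its title, and ranged from 0 to 7 with 1 library left out, where a pair left with 1 library is taken to vary like the others. The replicate block gave 1. The difference in the 100 highest features, -2.54 percentage points, was 2.71 for the 1000 highest and ranged from -9.01 to 4.92 with 1 library left out, the latter without control replicate 3. The difference in features above 0 ranged from -922 to -620, and passed only without L. ag. + L. av. replicate 1 (exact permutation p = 0.0357). The gap by length was 0.96 and 1.46 under the other scaling and filter and ranged from 0.76 to 0.99 with 1 library left out, where its p says nothing of stability, since groups that do not overlap then always give the smallest p possible. The median of features of 1000 to 2000 bp turned to -0.0505 after division by all recovered reads. No cause of these shifts was tested. Depth limits features near 1 FPKM, where 3 reads at 1000 bp are 0.0989 to 0.328 FPKM.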
